A study of Phaffia rhodozyma with 6 samples.

Results

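The genes described here are those that the annotation of *Phaffia rhodozyma* places on the KEGG maps of DNA replication, base excision repair, nucleotide excision repair, mismatch repair, homologous recombination and non-homologous end-joining. KEGG is a database of pathway maps. Genes that also carried the map of RNA polymerase were left out, because RNA polymerase subunits would otherwise enter through shared entries. This rule took 105 of the 6249 genes in the table and used no expression value. *P. rhodozyma* is a basidiomycete yeast that makes the red carotenoid astaxanthin. The S group held 3 libraries (S1 to S3) of cells given salicylic acid (SA), a hormone of plants, at 0.5 mg/L. The C group held 3 libraries (C1 to C3) of cells that received deionized water instead of SA. Both groups were cells of the same strain in YPD medium, cultured at 22 °C for 96 h by the study's methods, which do not state separately when cells were taken for RNA. Nothing in the labels ties the 3 libraries of a group to separate cultures. The p-values therefore rest on the spread among these libraries, and that spread may be technical. Where 3 values of a group follow each other, they are those of libraries 1, 2 and 3.

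DNA replication starts when the ring-shaped MCM helicase opens the double strand. DNA polymerase alpha with primase lays down primers, and polymerases epsilon and delta extend them while held to the template by the sliding clamp PCNA, which replication factor C loads. Replication protein A (RPA) covers exposed single strands, and flap endonuclease, RNase H and DNA ligase join the pieces of the lagging strand. Damage is removed by several routes that share these late enzymes. Base excision repair takes out single altered bases, nucleotide excision repair cuts out an oligonucleotide around bulky lesions, and mismatch repair corrects replication errors. Double-strand breaks are repaired by homologous recombination, which pairs a broken strand with an intact sequence and copies it, or by end joining, which ligates the ends directly after the Ku proteins bind them. These routes are known mainly from *Saccharomyces cerevisiae* and animal cells, and the roles given below for *P. rhodozyma* genes rest on their descriptions or orthology entries.

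Levels are FPKM, fragment numbers that the authors scaled by gene length and by the fragments mapped in each library. The unit keeps no read number, so the depth behind a single value is unknown and no counting interval can be given. A change is given as the difference of mean log2(FPKM + 0.1) between the S and C groups, which understates the change of low genes. A gene was called higher or lower at a Benjamini-Hochberg adjusted p under 0.05 from limma in a fit of 6113 genes. These were the genes averaging 0.5 FPKM or more, a limit that all 105 members passed. As a check of the organism, 4 genes whose descriptions name phytoene or astaxanthin synthase lay between 11.7 and 520 FPKM in every library. These limits were gene 10755 in C3 and gene 3359, phytoene dehydrogenase, in S3. Gene 10755 is described as a phytoene/squalene synthetase, which does not single out a carotenoid enzyme. The others, astaxanthin synthase among them, were at 51.4 FPKM (gene 3233) or more. By the study's methods reads were mapped to a *P. rhodozyma* genome, and only 30 (S2) to 59 (C2) genes had 0 FPKM. The check could therefore hardly have failed and does not settle the organism. The libraries were not level with each other. The median of the tested genes was 29.2, 31.3 and 32.0 FPKM in the S libraries, against 26.3, 26.4 and 23.6 FPKM in the C libraries. The median log2 fold change of all tested genes was 0.21, and each fold change below is to be read against that shift. It became −0.07 with each library centred on its own median and −0.04 after quantile normalization. RNA came from bulk cultures, where fewer cells of a kind and less RNA per cell cannot be told apart.

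Of the 105 members, 20 were higher in the S group (19.0%) and 0 were lower. Among all tested genes 19.9% were higher and 3.03% lower, so the share of members called higher was close to that of the transcriptome and is no result particular to replication and repair. At an unadjusted p under 0.05 limma gave 36 members higher and 0 lower, beside 32.4% and 5.27% of all genes. The estimate was above 0 in 94 members, against 73.5% of all genes. It was above 0 in 56 members with each library centred, 54 after quantile normalization and 79 without C3. The share of all genes above 0 was not taken in those fits. The median of all genes fell in them too, to −0.07, −0.04 and 0.14. The median log2 fold change of the members was 0.30, beside 0.21 for all genes. Every S library lay above every C library in 43 members, against 36.1% of all genes, and below every C library in 1 member (gene 5633), against 7.48% of all genes. With each library centred, 7 members were higher and 3 lower (7.26% and 15.3% of all genes), and the members' median was 0.02. After quantile normalization 5 were higher and 1 was lower (6.61% and 8.47% of all genes), also with a median of 0.02.

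The C3 library stood lowest in these genes. The median member had 19.9, 19.9 and 23.1 FPKM in the S libraries, against 15.4, 14.2 and 12.4 FPKM in the C libraries. C3 held the lowest value of the 6 libraries in 83 of 105 members (79.0%), against 49.9% of all tested genes. Without C3, 13 members were called higher and 1 lower, and the median of the members was 0.16, beside 0.14 for all genes, of which 18.3% were then higher. Without C1, 32 members were called higher (30.5%, beside 21.9% of all genes), and the median was 0.39, beside 0.24. The number called higher was 14 without S1, 8 without S2, 7 without S3 and 7 without C2, when 16.0%, 8.21%, 9.06% and 11.8% of all genes were called higher. The count of members thus moved by more than 1.5 times with C1, C2, C3, S2 or S3 left out. The part of C3 in single results was not tested beyond these fits.

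**Figure D1:**
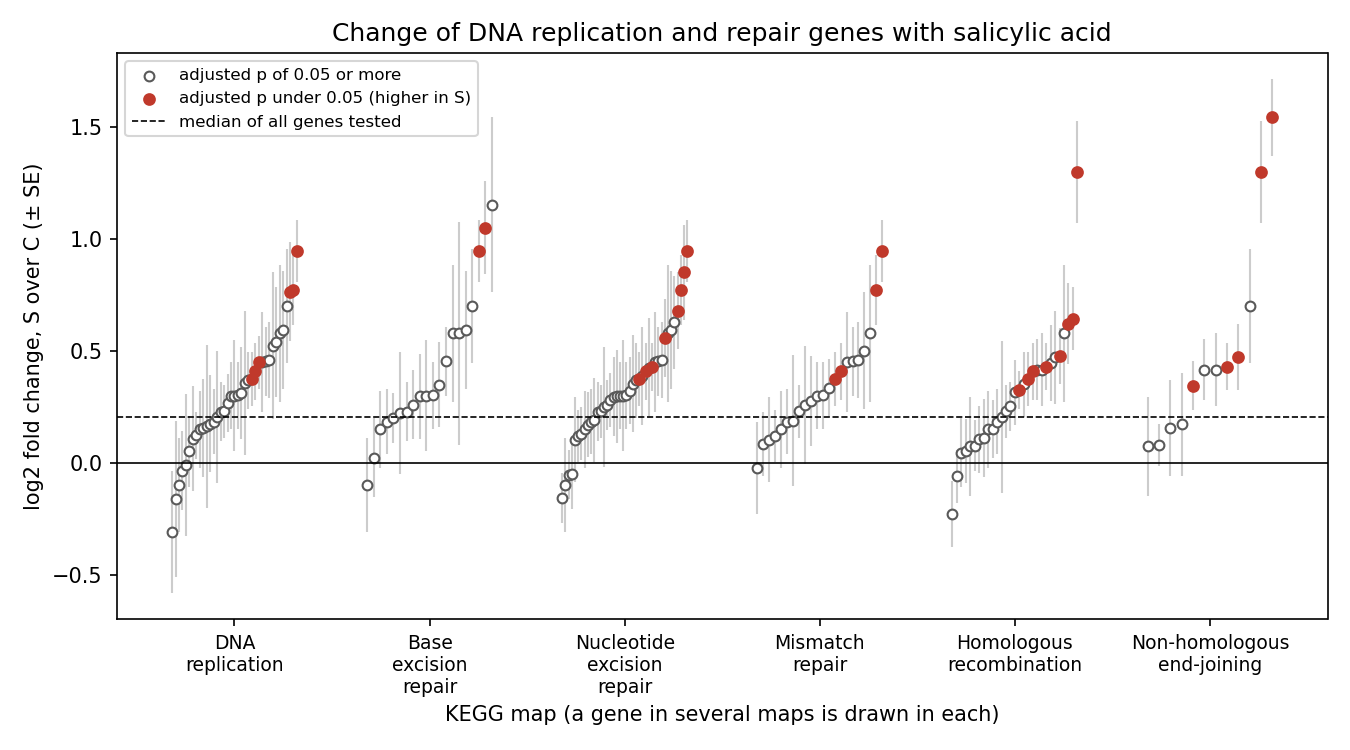
Log2 fold changes (S over C, on log2(FPKM + 0.1)) of the members of each map, with bars of ± SE, filled points where the adjusted p was under 0.05, and a dashed line at the median of all tested genes (0.21). Genes on several maps appear in each, and all filled points lie above the dashed line, up to 1.54 for gene 8837 in end-joining.

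The maps share members and are not independent of each other. Of the 105 genes, 80 were on 1 of the maps, 7 on 2, 9 on 3, 6 on 4 and 3 on 5. The DNA replication map had 37 members, of which 6 were higher (16.2%, 2 with centred libraries, 1 once quantile normalized). The base excision repair map had 2 of 20 higher (10.0%), under either scaling too. On the nucleotide excision repair map 8 of 40 were higher (20.0%, 3 higher and 2 lower with centred libraries, 1 and 0 after quantile normalization). On the mismatch repair map 4 of 22 were higher (18.2%, 2 and 1 under these scalings). The homologous recombination map had 8 of 29 higher (27.6%, 2 higher and 1 lower under either scaling), and the end-joining map had 5 of 12 (41.7%, 2 under either scaling). These shares stand beside 19.9% of all genes higher as deposited, 7.26% with centred libraries and 6.61% after quantile normalization. No map held a gene that was lower as deposited. The medians were 0.30 for the first 4 maps, 0.32 for homologous recombination and 0.42 for end-joining, beside 0.21 for all genes.

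Which library was left out decided part of each count. The replication map ran from 2 to 8 higher, base excision from 2 to 6, nucleotide excision from 2 to 13, mismatch repair from 2 to 7, recombination from 2 to 12 and end-joining from 2 to 8. The highest value in each range came without C1. In the same order of maps the numbers higher were 2, 2, 5, 2, 6 and 3 without S1 and 2, 2, 3, 2, 3 and 3 without S2. Leaving out S3 gave 3, 2, 3, 3, 3 and 2. Leaving out C2 gave 3, 2, 2, 2, 2 and 2, and leaving out C3 gave 3, 2, 5, 2, 5 and 3.

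Of the 20 genes called, 5 kept the call without any single library. They were gene 8837 (a family X DNA polymerase), gene 163 (a DNA ligase), gene 6155 (a thymine DNA glycosylase), gene 2143 (a clamp loader subunit) and gene 9509, a predicted transporter. The first 3 and gene 9509 kept it under all 14 other settings tried, while gene 2143 lost it after quantile normalization (adjusted p = 0.0573). With centred libraries, genes 11043 and 10135 also stayed called, and the other 13 did not. After quantile normalization the calls of genes 8837, 163, 9509 and 6155 were among the 5 that remained.

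**Figure D2:**
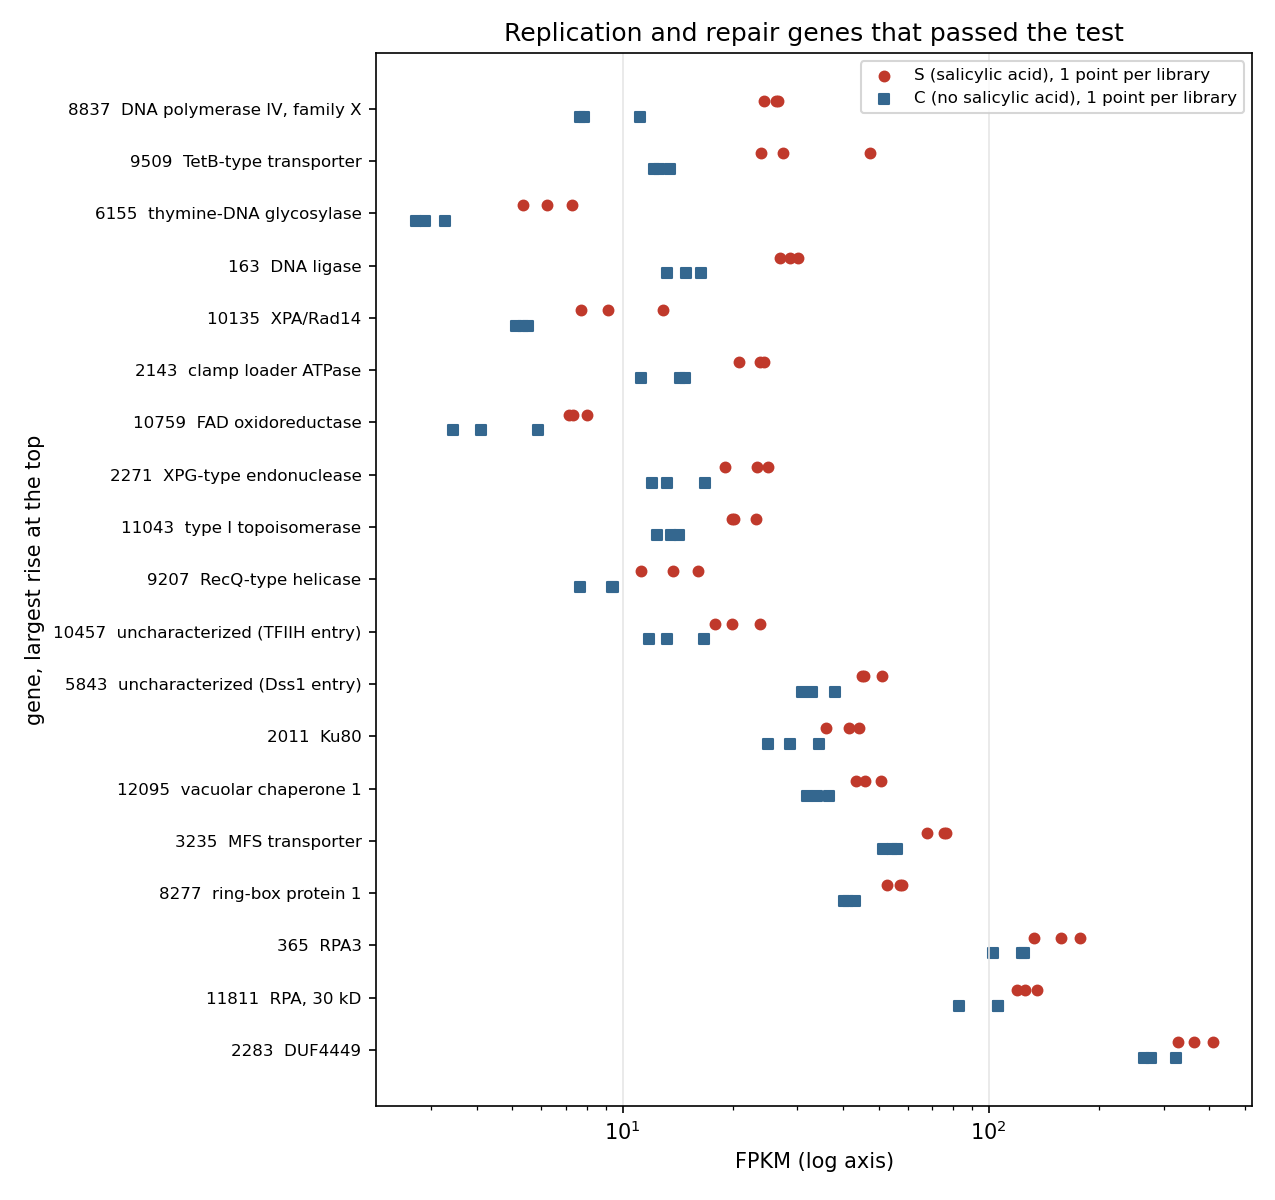
FPKM of 19 called members in each library on a log axis, with S libraries as circles and C libraries as squares, ordered by fold change. In every row the 3 S values lie above the 3 C values, as in 43 of the 105 members and 36.1% of all tested genes. The rows were called from these same libraries, so this is no separate support. The largest gap is that of gene 8837, at 24.4 to 26.6 FPKM in the S group and 7.65 to 11.2 FPKM in the C group.

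At the core of the replication fork, no gene of the helicase or the polymerases passed the test, beside 19.9% of all tested genes higher and 3.03% lower. The 6 MCM genes, which encode the subunits of the replicative helicase, had means of 0.639 to 13.9 FPKM over the 6 libraries and log2 fold changes of −0.16 to 0.16, the smallest adjusted p being 0.637. The most abundant MCM gene, gene 987, had 14.4, 15.2 and 12.6 FPKM in the S libraries, against 15.4, 13.3 and 12.1 FPKM in the C libraries. Gene 12263, filed under an MCM entry and the lowest member of all, had 0.564, 0.696 and 0.532 FPKM in the S libraries, against 0.694, 0.786 and 0.563 FPKM in the C libraries. In both genes the groups overlapped. Such p-values do not show that MCM expression was the same in the S and C groups.

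Of the 4 genes of DNA polymerase alpha and primase, 0 were called (smallest adjusted p = 0.267), beside 19.9% of all tested genes higher and 3.03% lower. Gene 8545, the catalytic subunit, had 5.92, 6.11 and 5.33 FPKM in the S libraries, against 5.41, 4.97 and 3.68 FPKM in the C libraries. Gene 489, the polymerase-associated subunit of this complex, had 1.25, 1.51 and 1.43 FPKM in the S libraries, against 1.99, 1.90 and 1.41 FPKM in the C libraries. It had the lowest estimate of the 105 members, at a log2 fold change of −0.31 (SE 0.27, limma adjusted p = 0.439), and its groups overlapped.

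DNA polymerase delta (3 genes) and polymerase epsilon (4 genes) had 0 calls, with smallest adjusted p-values of 0.193 and 0.126. The shares over all tested genes were 19.9% higher and 3.03% lower. The gene described as polymerase delta, gene 141, had 25.9, 29.4 and 26.6 FPKM in the S libraries, against 27.3, 24.8 and 20.3 FPKM in the C libraries. Gene 2813 is described as epsilon DNA polymerase, but its entry (K02325) is not that of the gene described as catalytic subunit (K02324, gene 135). Gene 2813 had 37.6, 32.3 and 36.3 FPKM in the S libraries, against 33.9, 29.6 and 27.2 FPKM in the C libraries. C3 was the lowest library in each of these 7 genes. Gene 135, filed with polymerase epsilon and described as catalytic subunit A, had 3.15, 3.24 and 3.00 FPKM in the S libraries, against 3.72, 3.45 and 2.93 FPKM in the C libraries, well below gene 2813 on this per-length scale.

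**Figure D3:**
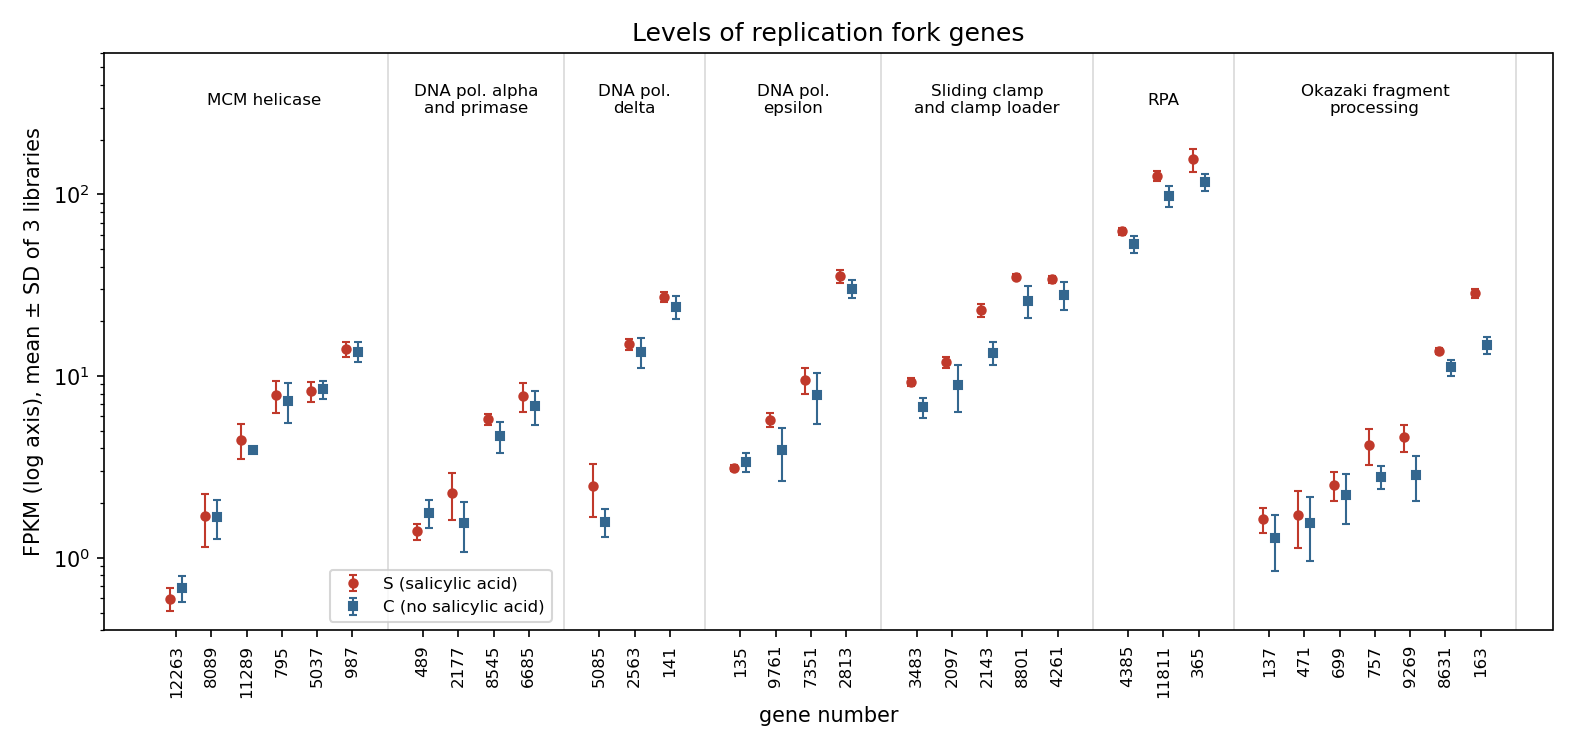
Mean FPKM ± SD of the 3 libraries of each group on a log axis for the replication fork genes, ordered by role, with S as circles and C as squares. The group means of MCM genes lie between 0.597 and 14.1 FPKM and those of RPA genes between 53.4 and 156 FPKM, and the called genes of the fork are 163, 2143, 365 and 11811.

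Every S library lay above every C library in all 5 genes of the clamp and its loader, as in 36.1% of all genes. Of the 5, 1 passed the test, beside 19.9% of all tested genes called higher. Gene 2143, filed as a small subunit of replication factor C (contig LN483142.1, 722720 to 724958, 11 exons), had 24.3, 23.8 and 20.9 FPKM in the S libraries, against 14.8, 14.4 and 11.3 FPKM in the C libraries. The lowest S value was well above the highest C value, with a log2 fold change of 0.77 (SE 0.15, limma adjusted p = 0.00855). PCNA, gene 8801, had 34.8, 34.3 and 36.6 FPKM in the S libraries, against 31.5, 25.6 and 21.1 FPKM in the C libraries. Its groups did not overlap either, but its log2 fold change of 0.45 missed the threshold (limma adjusted p = 0.0582). The large subunit of replication factor C, gene 4261, had 32.5, 34.9 and 34.9 FPKM in the S libraries, against 32.0, 29.4 and 22.4 FPKM in the C libraries (adjusted p = 0.168). The other 2 loader genes, 2097 and 3483, had adjusted p-values of 0.165 and 0.0755.

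RPA was the most abundant complex of the fork, at 58.0 to 136 FPKM on average. Of its 3 genes 2 rose, where 19.9% of all tested genes did. Gene 365, described as RPA3, the small subunit, had 157, 177 and 133 FPKM in the S libraries, against 124, 103 and 123 FPKM in the C libraries. Its log2 fold change was 0.41 (limma adjusted p = 0.0432). Gene 11811, the middle subunit, had 119, 125 and 135 FPKM in the S libraries, against 106, 106 and 82.7 FPKM in the C libraries. This was a log2 fold change of 0.37 (SE 0.12, limma adjusted p = 0.0483). All S libraries exceeded all C libraries in both genes. Neither call held with centred libraries, and leaving out single libraries took the adjusted p up to 0.176 for gene 365 (lost without S1, S2, C2 or C3) and 0.163 for gene 11811 (lost without S1, S2, S3, C2 or C3). The large subunit, gene 4385, had 61.5, 65.7 and 60.4 FPKM in the S libraries, against 58.2, 55.3 and 46.8 FPKM in the C libraries (limma adjusted p = 0.176).

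Among the 7 genes that finish Okazaki fragments, the ligase gene 163 rose and the others did not pass (19.9% of all tested genes rose). Gene 163 (contig LN483116.1, 202692 to 207304, 14 exons) stands on the replication, base excision, nucleotide excision and mismatch repair maps. It had 28.6, 26.9 and 30.2 FPKM in the S libraries, against 16.4, 14.9 and 13.2 FPKM in the C libraries. The S and C ranges were well apart, with a log2 fold change of 0.95 (SE 0.14, limma adjusted p = 0.00264), a 1.93-fold difference. Gene 8631, described as DNA ligase I and filed under the same orthology entry, had 13.2, 14.2 and 13.8 FPKM in the S libraries, against 12.3, 11.2 and 9.96 FPKM in the C libraries (limma adjusted p = 0.167). The flap endonuclease entry was carried by gene 9269, with 5.38, 4.68 and 3.81 FPKM in the S libraries, against 3.66, 2.12 and 2.74 FPKM in the C libraries. Its log2 fold change of 0.70 missed the threshold (limma adjusted p = 0.0713) although its groups did not overlap. RNase H genes 699 and 757, which remove RNA primers, had adjusted p-values of 0.642 and 0.136. Gene 137, described as a replication helicase, averaged 1.63 ± 0.255 FPKM in the S group and 1.29 ± 0.441 FPKM in the C group (SD, n = 3 each, adjusted p = 0.448).

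The ratio of genes within a library is free of a scale factor between libraries, and it was taken for pairs that share an orthology entry, such as genes 163 and 8631. Gene 163 was 2.17, 1.90 and 2.18 times as high as gene 8631 in the S libraries, against 1.33, 1.33 and 1.32 times in the C libraries. The S ratios lay above the C ratios without overlap. Pairs were formed without the members described otherwise (below), a selection made after the values were seen. The gene with the larger log2 fold change was put on top, which favours ratios higher in the S group. Over the 9 pairs so formed, an exact two-sided permutation test gave p = 0.1 for this pair. This was the smallest p that 3 against 3 libraries allow. After Benjamini-Hochberg adjustment over these pairs it was 0.18. The same p was reached for gene 9207 over genes 9531 and 8521 (RecQ-type helicases), gene 6547 over gene 12409 (AP endonucleases) and gene 3177 over gene 9885 (the RAD23 entry). In the other 4 pairs the ratios overlapped between groups. No pair could pass 0.05 in this design.

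Base excision repair begins with glycosylases, and 1 of the 6 rose, beside 19.9% of all tested genes. Gene 6155, described as a G/T mismatch-specific thymine DNA glycosylase (contig LN483166.1, 779184 to 781208, 8 exons), had 5.34, 6.23 and 7.26 FPKM in the S libraries, against 3.28, 2.73 and 2.88 FPKM in the C libraries. The level was low but the groups did not overlap, with a log2 fold change of 1.05 (SE 0.21, limma adjusted p = 0.00808). The 8-oxoguanine DNA glycosylase, gene 8553, which removes the main oxidized form of guanine, was the most abundant of them and had 82.9, 70.2 and 77.0 FPKM in the S libraries, against 70.9, 61.3 and 68.0 FPKM in the C libraries (limma adjusted p = 0.215). Uracil-DNA glycosylase, gene 10511, had 13.2, 11.6 and 15.1 FPKM in the S libraries, against 14.5, 14.2 and 10.7 FPKM in the C libraries. The groups overlapped for both. Gene 8725, an adenine DNA glycosylase, was the lowest, at 0.816 ± 0.0577 FPKM in the S group and 0.609 ± 0.405 FPKM in the C group (SD, n = 3 each), and gene 10223, described as mutM or fpg, had limma adjusted p = 0.203. Gene 5989, which is described as a 3-methyladenine glycosidase, had an adjusted p of 0.583.

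The AP endonucleases, which cut the strand where a base is missing, had 0 of 3 called, beside 19.9% of all tested genes higher and 3.03% lower. Gene 6547, described as exodeoxyribonuclease III, had 1.36, 2.86 and 1.93 FPKM in the S libraries, against 1.0, 0.480 and 1.15 FPKM in the C libraries. Its estimate of 1.15 (SE 0.39) was among the largest of the members, but it was close to the filter on low values and missed the threshold (limma adjusted p = 0.0566). Gene 12409, the major AP endonuclease by its description, had 14.3, 18.0 and 14.4 FPKM in the S libraries, against 13.0, 13.6 and 12.2 FPKM in the C libraries (limma adjusted p = 0.235). Gene 1085 averaged 19.5 ± 4.34 FPKM in the S group and 15.8 ± 2.71 FPKM in the C group (SD, n = 3 each), and its groups overlapped.

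In nucleotide excision repair, 2 of the 7 genes of damage recognition and incision rose, beside 19.9% of all tested genes. Gene 10135, described as XPA or RAD14, a protein that verifies the lesion, had 7.68, 9.12 and 12.9 FPKM in the S libraries, against 5.50, 5.34 and 5.12 FPKM in the C libraries. This was a log2 fold change of 0.85 (SE 0.21, limma adjusted p = 0.0192), with the S libraries spread more widely than the C libraries. Gene 2271, a single-strand specific endonuclease filed under the entry of XPG, which makes the 3′ incision, had 23.2, 19.0 and 25.0 FPKM in the S libraries, against 16.8, 13.2 and 12.0 FPKM in the C libraries. Its log2 fold change was 0.68 (limma adjusted p = 0.0206). Gene 10135 lost its call without S2, S3 or C2 (adjusted p up to 0.0745) and gene 2271 without S1, S3 or C2 (up to 0.0794). The XPF and ERCC1 components of the 5′ nuclease, genes 1511 and 2589, did not pass (adjusted p = 0.489 and 0.244). Nor did the XPC subunit, gene 8209, at 45.8 ± 5.55 FPKM in the S group and 35.8 ± 7.68 FPKM in the C group (SD, n = 3 each, limma adjusted p = 0.137).

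The estimate for Rad23, the partner of XPC, was below 0. Gene 9885, the RAD23 component, had 133, 143 and 138 FPKM in the S libraries, against 168, 165 and 131 FPKM in the C libraries. The C3 value lay below the S libraries and those of C1 and C2 above them, so the groups overlapped, with a log2 fold change of −0.16 (SE 0.11, limma adjusted p = 0.337). Without C3 it was called lower (adjusted p = 0.0368), and it was also lower with centred libraries (adjusted p = 0.0152) but not after quantile normalization (0.142). The other gene under this entry, gene 3177, described by its ubiquitin domain, had 28.3, 29.2 and 25.3 FPKM in the S libraries, against 26.3, 20.1 and 20.0 FPKM in the C libraries (limma adjusted p = 0.138).

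TFIIH is the complex that opens the helix around the lesion and also serves transcription. Of its 10 genes 1 rose, beside 19.9% of all tested genes. It was gene 10457, described as an uncharacterized conserved protein and filed under the entry of the smallest TFIIH subunit, with 17.8, 19.9 and 23.7 FPKM in the S libraries, against 16.7, 11.8 and 13.2 FPKM in the C libraries. Its log2 fold change was 0.56 (limma adjusted p = 0.0437), a call lost without S2, S3, C2 or C3 (adjusted p up to 0.158). Gene 11295, the TFB4 subunit, had 16.5, 18.7 and 27.8 FPKM in the S libraries, against 14.9, 14.1 and 11.0 FPKM in the C libraries. Its groups did not overlap, yet its log2 fold change of 0.63 missed the threshold (limma adjusted p = 0.0543), with S3 the highest library. The helicase subunits, genes 3635 and 9671 (the homolog of rad25), had adjusted p-values of 0.413 and 0.118. The kinase of the complex, gene 185, averaged 8.25 ± 0.874 FPKM in the S group and 7.25 ± 2.58 FPKM in the C group (SD, n = 3 each, adjusted p = 0.529).

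Of the 3 genes of the cullin ubiquitin ligase on this map, ring-box protein 1 rose (19.9% of all tested genes rose). Gene 8277 had 57.3, 52.7 and 57.8 FPKM in the S libraries, against 43.0, 41.4 and 40.2 FPKM in the C libraries. All S libraries were above all C libraries, with a log2 fold change of 0.43 (SE 0.11, limma adjusted p = 0.02), and the call was lost without S1, S2, S3 or C2 (adjusted p up to 0.0847). DDB1, gene 6403, which carries the damage-binding part of this ligase, had 79.3, 76.8 and 76.2 FPKM in the S libraries, against 86.8, 84.0 and 70.9 FPKM in the C libraries. Its log2 fold change was −0.05 (limma adjusted p = 0.762), and the groups overlapped. With centred libraries it was called lower (adjusted p = 0.0374).

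Mismatch repair proteins in the strict sense had 0 of 7 genes called, beside 19.9% of all tested genes higher and 3.03% lower. The calls on their map were those of gene 163, the clamp loader and RPA. The MutS homologs bind mispaired bases. Among them MSH3, gene 7685, had 39.0, 41.4 and 37.2 FPKM in the S libraries, against 35.1, 30.9 and 27.5 FPKM in the C libraries, without overlap (limma adjusted p = 0.0851). MSH6, gene 1113, averaged 22.6 ± 2.08 FPKM in the S group and 21.3 ± 2.43 FPKM in the C group (SD, n = 3 each). The MutL homolog MLH3, gene 7983, and the exonuclease 1 gene 2703 had adjusted p-values of 0.338 and 0.506. MSH6 averaged below MSH3 on the FPKM scale, which is per length.

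In homologous recombination, 2 of the 8 genes of strand exchange were higher, beside 19.9% of all tested genes. Gene 5843 was an uncharacterized protein filed under the entry of DSS1, a partner of the BRCA2 family. It had 45.2, 51.2 and 45.6 FPKM in the S libraries, against 33.0, 31.0 and 38.0 FPKM in the C libraries. This was a log2 fold change of 0.48 (SE 0.12, limma adjusted p = 0.0231), lost without S2, S3 or C2 (adjusted p up to 0.109). The BRCA2-like gene 9153, named Brh2 after its *Ustilago maydis* counterpart, had 28.9, 28.2 and 31.9 FPKM in the S libraries, against 31.4, 29.4 and 22.5 FPKM in the C libraries (limma adjusted p = 0.637), with overlap. Gene 8845, described as a homolog of Rad52, which helps to start strand exchange, had 25.8, 31.1 and 39.3 FPKM in the S libraries, against 25.8, 23.2 and 20.7 FPKM in the C libraries (limma adjusted p = 0.0803). S3 was its highest library and C3 its lowest. Gene 3883, the Rad54B homolog, averaged 150.3 ± 11.5 FPKM in the S group and 122 ± 25.3 FPKM in the C group (SD, n = 3 each, adjusted p = 0.14).

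The enzymes that resolve recombination intermediates had 2 of 7 genes higher, beside 19.9% of all tested genes. Gene 11043, described as a prokaryotic type I topoisomerase, had 19.9, 20.1 and 23.1 FPKM in the S libraries, against 14.3, 13.6 and 12.4 FPKM in the C libraries. Every S library was above every C library, with a log2 fold change of 0.65 (SE 0.14, limma adjusted p = 0.0116), and the call was lost only without S3 among the fits that left out a library (adjusted p = 0.0533) and after quantile normalization. Gene 9207, an ATP-dependent helicase of the RecQ type, had 11.2, 13.7 and 16.0 FPKM in the S libraries, against 9.38, 9.34 and 7.63 FPKM in the C libraries. Its log2 fold change was 0.62 (limma adjusted p = 0.0339), lost without S2, S3, C2 or C3 (adjusted p up to 0.129). Of the other genes under the same entry, gene 8521, described as Rqh1-type after the *Schizosaccharomyces pombe* helicase, had 44.9, 52.7 and 46.3 FPKM in the S libraries, against 43.9, 45.5 and 46.6 FPKM in the C libraries. There the groups overlapped (limma adjusted p = 0.643). The MUS81 nuclease genes 695 and 2357 differed in level, with means over the 6 libraries of 24.9 and 1.79 FPKM, and neither passed (adjusted p = 0.102 and 0.69). The break sensor genes RAD50 (gene 4497), the repair exonuclease gene 6683 and the ATM homolog gene 6151 had adjusted p-values of 0.0896, 0.835 and 0.812.

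End joining held the largest change of the 105 members. Gene 8837, described as DNA polymerase IV of family X (contig LN483249.1, 364594 to 367041, 9 exons), which belongs to a family that fills short gaps, had 26.2, 24.4 and 26.6 FPKM in the S libraries, against 7.87, 11.2 and 7.65 FPKM in the C libraries. The lowest S library was far above the highest C library, with a log2 fold change of 1.54 (SE 0.17, limma adjusted p = 0.000941), a 2.91-fold difference. Its adjusted p was 0.00465 with centred libraries and 0.00577 after quantile normalization, and no more than 0.00501 without any single library. Ku80, gene 2011, one partner of the ring that binds broken ends, had 35.9, 44.2 and 41.5 FPKM in the S libraries, against 34.3, 28.7 and 24.9 FPKM in the C libraries. All S libraries lay above all C libraries by a small margin, with a log2 fold change of 0.47 (SE 0.15, limma adjusted p = 0.0444), lost without S2, S3, C2 or C3 (adjusted p up to 0.168). Ku70, gene 10517, was about an order of magnitude lower in level and had 3.51, 2.84 and 3.86 FPKM in the S libraries, against 3.54, 2.77 and 2.71 FPKM in the C libraries, with overlap (limma adjusted p = 0.616). DNA ligase IV, gene 10589, had 5.63, 5.92 and 6.23 FPKM in the S libraries, against 6.20, 6.05 and 3.96 FPKM in the C libraries (limma adjusted p = 0.626). C3 was the lowest library in all 4 genes of the end-joining proteins.

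Orthology entries were shared by several genes, and some of these carried descriptions of another kind. The 105 members held 84 entries, and 14 entries covered 35 genes, up to 4 each. For 13 members the description named another function or none while a second member fitted the entry better. Without these 13, a selection made after the values were seen, 15 of 92 members were higher (16.3%), 0 were lower, and the median was 0.29. Of the 12 genes on the end-joining map 5 were of this kind, and without them 2 of 7 were higher. Beside these counts stand 19.9% of all tested genes higher, 3.03% lower and a median of 0.21.

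Of the 13, 5 were called higher, beside 19.9% of all tested genes. Gene 9509, described as a TetB-type drug resistance transporter and filed under the entry of RAD50, had 23.9, 27.4 and 47.5 FPKM in the S libraries, against 12.2, 13.5 and 12.5 FPKM in the C libraries. S3 was far above S1 and S2, all S libraries exceeded the C libraries, and the change was a log2 fold change of 1.30 (SE 0.23, limma adjusted p = 0.00524). Gene 3235, a major facilitator superfamily transporter under the same entry, had 75.3, 67.6 and 76.2 FPKM in the S libraries, against 56.3, 54.5 and 51.6 FPKM in the C libraries (log2 fold change 0.43, limma adjusted p = 0.0184). Gene 9191, with the same description, had 26.7, 25.0 and 28.4 FPKM in the S libraries, against 21.4, 21.1 and 17.6 FPKM in the C libraries, and missed the threshold at limma adjusted p = 0.0509. Such descriptions name membrane transporters and not a break sensor, and no sequence was compared to decide between them.

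The remaining 3 calls of this kind were gene 10759, an FAD-dependent oxidoreductase, gene 12095, vacuolar transporter chaperone 1, and gene 2283, a protein with domain DUF4449 under the entry of DNA ligase IV. Gene 10759 had 7.33, 8.01 and 7.15 FPKM in the S libraries, against 4.11, 5.88 and 3.43 FPKM in the C libraries. Gene 12095 had 45.8, 50.9 and 43.3 FPKM in the S libraries, against 36.5, 31.8 and 34.0 FPKM in the C libraries. Gene 2283 had 409, 328 and 364 FPKM in the S libraries, against 324, 277 and 266 FPKM in the C libraries. Their S libraries lay above their C libraries in each case, with log2 fold changes of 0.77, 0.45 and 0.35 and adjusted p-values of 0.0342, 0.0254 and 0.0444. Each call was lost with centred libraries, and on leaving out single libraries the adjusted p reached 0.122, 0.125 and 0.136. Gene 3235 likewise reached 0.0819 (lost without S1, S3 or C2). Gene 10759 lost its call without S1, S2, S3, C1 or C3, gene 12095 without S1, S2, S3 or C2 and gene 2283 without S1, S2, S3, C2 or C3.

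Gene 5633, an uncharacterized conserved protein filed under the Rad54 entry, was the member whose S libraries all lay below the C libraries. It had 12.0, 12.3 and 11.3 FPKM in the S libraries, against 14.3, 15.0 and 12.4 FPKM in the C libraries. The highest S and the lowest C library were close to each other, and the log2 fold change was −0.23 (limma adjusted p = 0.29). It was called lower with centred libraries (adjusted p = 0.02) and after quantile normalization (0.0207). Genes 9885 and 6403, described above, were the other members called lower with centred libraries, where 15.3% of all genes were.

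**Figure D4:**
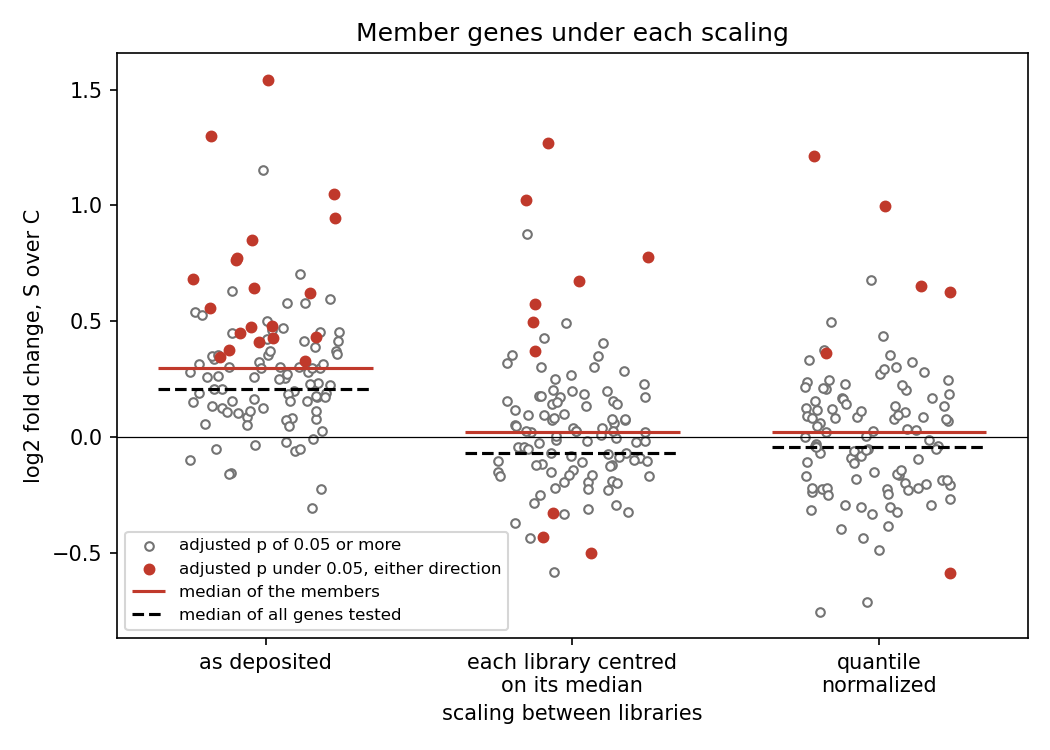
Log2 fold changes (S over C) of the 105 members as deposited, with each library centred on its median, and after quantile normalization. Filled points have an adjusted p under 0.05 (20, 10 and 6 genes, of which 0, 3 and 1 were lower), the solid lines are the members' medians (0.30, 0.02 and 0.02) and the dashed lines those of all tested genes (0.21, −0.07 and −0.04).

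By level, the members were modest. Their median mean FPKM was 17.3, beside 28.5 for all tested genes, and the lowest was 0.639 for gene 12263. The replication map was the lowest, with a median of 8.35 FPKM, followed by base excision (12.8), mismatch repair (16.3), end-joining (23.1), nucleotide excision (23.2) and recombination (25.7). The genes were long, with a median coding length of 2106 bases against 1332 for all tested genes and a median of 11 exons against 7. They lay on 15 of 70 contigs and none overlapped another gene. In 3 cases members were neighbours. Gene 135 of polymerase epsilon and gene 137, the replication helicase, lay 280 bp apart, and the PcrA-type helicase gene 3831 was 334 bp from gene 3833, a vacuolar polyphosphate protein. The exonuclease gene 6683 was 291 bp from the primase-type gene 6685. In none of these pairs did either gene pass the test. The contig names are those of the table, and the assembly behind them could not be settled from the labels and methods.

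Genes outside the maps whose descriptions contain words of replication and repair numbered 78, of which 77 were tested. Of these 9 were higher (11.7%, beside 19.9% of all genes) and 0 lower, 3 and 6 with centred libraries and 4 and 3 after quantile normalization, with a median of 0.31. The number higher was 16 without C1, 5 without S2, 6 without S3 and 6 without C2. The word list also took in some genes of other function. The smallest adjusted p was that of gene 8319, the AOS1/RAD31 part of the SUMO-activating enzyme, with 31.5, 33.7 and 31.4 FPKM in the S libraries, against 18.1, 18.4 and 15.7 FPKM in the C libraries. Its groups were far apart, with a log2 fold change of 0.89 (SE 0.13, limma adjusted p = 0.00264). Gene 2263, a PIF1/RRM3 helicase, which helps forks past obstacles in *S. cerevisiae*, had 76.4, 87.9 and 91.9 FPKM in the S libraries, against 53.3, 56.9 and 58.6 FPKM in the C libraries (limma adjusted p = 0.00659). Gene 4985, a Rad21/Rec8-like cohesin protein, had 10.2, 12.3 and 13.1 FPKM in the S libraries, against 7.10, 6.31 and 6.08 FPKM in the C libraries (limma adjusted p = 0.00861).

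The other calls of that list had changes of similar size. Gene 10783, a mitochondrial DNA helicase, averaged 20.8 ± 2.31 FPKM in the S group and 12.1 ± 1.45 FPKM in the C group (SD, n = 3 each, limma adjusted p = 0.00875). Genes 4245, 4247 and 7145 were all described as Rad5, with log2 fold changes of 0.56, 0.62 and 0.66 (adjusted p = 0.0256, 0.0116 and 0.0149). Genes 4245 and 4247 are neighbours with the same description, and their spans do not overlap. Whether counting split reads between them was not tested, so their values are to be read with that limit. Gene 5501, the RAD18 protein of the SMC family, and gene 6371, the postreplication repair protein RAD18, had log2 fold changes of 0.52 and 0.89 (adjusted p = 0.0156 and 0.0412). All 9 had every S library above every C library, as did 25 of the 77 tested genes of the list and 36.1% of all genes. The 9 were called from the same libraries, so this is no separate support. With centred libraries genes 8319, 4985 and 10783 stayed higher, and after quantile normalization these and gene 2263. Calls were lost on leaving out single libraries for gene 7145 (without S2 or S3, adjusted p up to 0.08), gene 5501 (without S2 or C2, up to 0.0688), gene 4245 (without S1, S2, S3 or C2, up to 0.0803) and gene 6371 (without S1, S2, S3, C2 or C3, up to 0.128).

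The supply of deoxynucleotides, which replication consumes, was followed in 6 genes, of which 5 were tested, with 1 lower and 1 higher. Among all tested genes 3.03% were lower and 19.9% higher. Thymidylate synthase, gene 12339, which makes the thymine nucleotide, had 76.7, 71.6 and 73.5 FPKM in the S libraries, against 116, 107 and 112 FPKM in the C libraries. Every S library was well below every C library, with a log2 fold change of −0.60 (SE 0.10, limma adjusted p = 0.00363), and it stayed lower with centred libraries, after quantile normalization and without any single library. Thymidylate kinase, gene 8807, had 5.69, 8.20 and 8.18 FPKM in the S libraries, against 4.77, 4.05 and 4.50 FPKM in the C libraries. This was a log2 fold change of 0.70 (SE 0.21, limma adjusted p = 0.0361), lost without S2, S3, C2 or C3 (adjusted p up to 0.152) and with centred libraries.

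Neither subunit of ribonucleotide reductase, the enzyme that makes deoxynucleotides, passed the test. The small subunit, gene 8585, had 124, 122 and 127 FPKM in the S libraries, against 117, 117 and 119 FPKM in the C libraries (log2 fold change 0.08, SE 0.09). The alpha subunit, gene 4489, averaged 21.7 ± 2.06 FPKM in the S group and 23.1 ± 1.16 FPKM in the C group (SD, n = 3 each). Their adjusted p-values were 0.537 and 0.643, and dihydrofolate reductase, gene 7089, had 0.739 (0.0492, and called lower, without C3). The gene of dCMP deaminase, gene 1449, lay below the filter, at 0.295 ± 0.122 FPKM in the S group and 0.221 ± 0.0723 FPKM in the C group (SD, n = 3 each).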

How the data were processed

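RNA of *P. rhodozyma* was sequenced as stranded, paired-end poly(A) libraries, 3 from cells given SA and 3 from cells given water. By the methods and the submitters' processing notes, fastp was used to clean reads, HISAT2 to map and StringTie to quantify. Tool versions and whether counting used strand are not given in the sources read here. The deposited values are FPKM, which are scaled by gene length and by library size, so edgeR, which the study names for its comparison and which needs counts, was not run. The deposited table also holds the authors' own fold, its log2, p-value, q-value and verdict, which were not used. Libraries were matched to groups by their labels, and the table had 0 further columns with values of a sample.

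Members were taken by map number from the KEGG column. The S and C groups were compared on log2(FPKM + 0.1) by limma (version 3.58.1, R version 4.3.3). The fit used a trend of variance with mean, had no block for replicates, and covered the 6113 of 6249 genes that averaged 0.5 FPKM or more. Tests were two-sided, with Benjamini-Hochberg adjustment over these genes. Ratios within libraries were compared by exact permutation tests in Python 3.11.15, and figures were drawn with matplotlib 3.10.9. The fit was tested on simulated data, with independent noise around each gene's mean and a small set of genes changed by known amounts. Those data had no shift between libraries, unlike the deposited values, so that test does not cover the shift.

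The members, lists and tests were chosen with earlier results of these data known. By the rule for named genes, library values and tests are given for called members, for the highest and lowest members, and for core complexes whatever their values, and from the lists outside the maps for called genes. Deoxynucleotide genes that were not called, and uncalled genes discussed beside called ones, were named after their values were seen. The alternatives were the pseudocount (1 and 0.01), the filter on low values (none, or 1 FPKM), centred libraries, quantile normalization, a replicate block, no mean-variance trend, and each library left out in turn. The values of some members are not reported here.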

Additional observations from a re-analysis of the deposited data

How the results depend on the processing

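Counts are of genes higher, then lower where any were, in the S group. With each library centred on its median they were 7 and 3 for the members (as deposited 20 and 0), 2 for replication, 3 and 2 for nucleotide excision, 2 for mismatch repair, 2 and 1 for recombination, 2 for end-joining, 3 and 6 for the other replication and repair genes, 0 and 1 for deoxynucleotide supply, and 444 and 937 for all genes. After quantile normalization they were 5 and 1, 1, 1, 1, 2 and 1, 2, 4 and 3, 0 and 1, and 404 and 518 in the same order. Without the mean-variance trend, 5 genes of recombination and 3 of end-joining were higher, and 80 of all genes lower. The pseudocounts and filters kept the members' count at 20 or 21.

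Whether the replicate numbers pair the libraries is not given by the labels. The deviations of same-numbered libraries from their group means correlated at −0.017, 0.16 and −0.0034. Differently numbered libraries were not compared in this way, so these values do not settle the pairing. With the replicate block, 15 members were higher, with 5 for nucleotide excision, 2 for mismatch repair, 5 for recombination and 0 higher (1 lower) for deoxynucleotide supply. Without the members described otherwise, which was added after seeing the data, end-joining had 2 of 7 higher, beside 19.9% of all tested genes.

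Leaving out each library in turn gave 7 to 32 members higher and 0 to 1 lower. The ranges of genes higher were 2 to 8 for replication, 2 to 6 for base excision, 2 to 13 for nucleotide excision (0 to 1 lower), 2 to 7 for mismatch repair, 2 to 12 for recombination, 2 to 8 for end-joining, 5 to 16 for the other genes (0 to 2 lower), 0 to 1 for deoxynucleotide supply (1 to 2 lower) and 501 to 1338 for all genes (67 to 293 lower). The estimate of DDB1, gene 6403, ranged from −0.14 to 0.00422 and changed sign without C1. The cause of these differences was not tested. The depth behind single values is unknown, so what it limits was not measured.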
